A study of Mus musculus with 10 samples.

Results

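The hemoglobin and erythroid genes considered here were Hba-a1 and Hba-a2, which encode the adult alpha chain of hemoglobin, Hbb-bs and Hbb-bt, which encode its adult beta chain, and Alas2, which encodes the erythroid form of the enzyme that starts heme synthesis. They were chosen by name and looked up by gene symbol. Of the 5 genes, 4 were found among the 24608 symbols of the count table, and Alas2 was not analysed here. The counts came from muscle stem cells (MuSCs, the Pax7-expressing satellite cells of skeletal muscle) isolated 3 days after injury of the muscle with cardiotoxin (CTX), a snake venom toxin that destroys myofibers. Control mice were Trpm7+/+; Pax7CreERT2/+; Rosa26YFP, and Trpm7 cKO mice were Trpm7 flox/flox; Pax7CreERT2/+; Rosa26YFP, with 5 libraries per genotype. All were adult mice on a C57BL6 background given tamoxifen, so that both groups carried Cre, driven from the Pax7 locus, and the YFP reporter, and they differed by the floxed Trpm7 alleles. Each library was made from 3000 YFP-positive cells sorted by FACS, read at the 3′ end of transcripts and counted by unique molecular identifier (UMI), 1 count per molecule. YFP marks cells of the Pax7 lineage, and markers of other cells are given beside the results.

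Hemoglobin is a tetramer of alpha and beta chains, each holding a heme group. Its mRNAs are made in erythroblasts of bone marrow and spleen under regulators such as GATA1 and KLF1, and they make up most of the mRNA of reticulocytes, the young red cells that have lost their nucleus and still circulate with mRNA. Red cells are abundant in blood and in injured muscle, where vessels are broken, and hemoglobin transcripts are a common trace of blood in tissue RNA.

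The sequences of the alpha chain pair are shown because they set how well the counts of Hba-a1 and Hba-a2 can be told apart. In the GENCODE vM21 annotation of GRCm38, Hba-a1 lies at chr11:32283511-32284465 on the plus strand and Hba-a2 at chr11:32296489-32297298 on the plus strand, each with 3 exons. Their coding sequences of 429 bases, stop codon included, differed at 1 base, C381T, counted from 1 at the A of the start codon with Hba-a1 given before Hba-a2 (99.8% identity). The 30 coding bases around it lie in exon 3, at chr11:32284328-32284357 and chr11:32297145-32297174, and the capital marks the base that differs:
Hba-a1: gcatgcctctctggaCaaattccttgcctc
Hba-a2: gcatgcctctctggaTaaattccttgcctc
Reads were 81 bases long before trimming. Of the 220 stretches of 81 bases in the last 300 bases of the Hba-a1 transcript, 63.2% also occurred in the Hba-a2 transcript, and 55.9% of those of Hba-a2 occurred in Hba-a1. A read from such a stretch cannot be assigned to either gene by its sequence, and how the counting treated reads with more than 1 match is not given in the sources used here, so the split of alpha chain counts between both genes is uncertain and their sum is the safer value.

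The beta chain pair is shown for the same reason. Hbb-bs lies at chr7:103826534-103828096 and Hbb-bt at chr7:103812524-103813996, both on the minus strand with 3 exons. Their coding sequences of 444 bases also differed at 1 base, C417T, counted as above with Hbb-bs before Hbb-bt. The 30 bases around it lie in exon 3, at chr7:103826678-103826707 and chr7:103812669-103812698 on the minus strand:
Hbb-bs: ggtggctggagtggcCgctgccctggctca
Hbb-bt: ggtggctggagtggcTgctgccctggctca
Their 3′ ends differed more than those of the alpha pair. Of the stretches of 81 bases in the last 300 bases, 27.7% of those of Hbb-bs and 27.3% of those of Hbb-bt occurred in the other transcript, so the 2 beta chain counts are better separated than the 2 alpha chain counts.

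The promoter sequences are given as background on these genes, and any part of them in the counts was not tested. All 5 genes matched a promoter of 300 bases in RefSeq (GRCm38.p6), which runs from 250 bases before the start to 50 bases after it. CCAAT and ATATAA, sought on both strands, were present in the promoters of the 4 hemoglobin genes, against 37.4% and 9.82% of the 32851 promoters in the table. The 30 bases around each ATATAA, in capitals, are given 5′ to 3′, at chr11:32283632-32283661 for Hba-a1, chr11:32296449-32296478 for Hba-a2, chr7:103827941-103827970 for Hbb-bs and chr7:103813935-103813964 for Hbb-bt:
Hba-a1 promoter: cccttggagggcATATAAgtgctacttgct
Hba-a2 promoter: cccttggagggcATATAAgtgctacttgct
Hbb-bs promoter: ccagggcagagcATATAAggtgaggtagga
Hbb-bt promoter: ccagcattgggtATATAAagctgagcaggg
ATATAA began 28, 31, 30 and 29 bases before the RefSeq start in Hba-a1, Hba-a2, Hbb-bs and Hbb-bt. GENCODE places the starts of Hba-a1, Hbb-bs and Hbb-bt further upstream, so these 3 windows lie inside the GENCODE gene spans given above. CACCC and GATAA, letters of the sites that erythroid Krüppel-like and GATA factors bind, were each found in all 5 promoters, Alas2 included, and in 57.5% and 25.4% of all promoters. These matches describe the letters and were not set against any binding data.

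Control libraries held between 914361 and 1097709 counts and Trpm7 cKO libraries between 205986 and 581121, so that every Trpm7 cKO library was the shallower, and a part of depth in a difference cannot be told apart from genotype. Counts are therefore also given as CPM, counts per 1e6 counts of the tested genes, after scaling by edgeR's TMM factors, and calls come from edgeR's quasi-likelihood test over 7753 genes with Benjamini-Hochberg adjusted p-values. The markers of the labelled cell type were present: Pax7, the transcription factor that defines MuSCs, had 167 to 224 counts in control and 101 to 296 in Trpm7 cKO libraries. The 8 MuSC markers summed to 1719.3 to 2038.6 CPM in control and 1700 to 2593.6 CPM in Trpm7 cKO libraries. Of the 8, 5 were called higher, Pax7 among them (edgeR log2 fold change 1.19, adjusted p = 2.4e-05), and 1, Itga7, lower (-0.59, adjusted p = 0.00101), but counted per sorted cell, with no scaling for library size, Chrdl2 alone was still called higher and the other 4 had changes of -0.77 to 0. Trpm7 itself was at 76.9 ± 9.97 CPM in the control and 71.4 ± 22.0 CPM in the Trpm7 cKO libraries (SD, n = 5 each; edgeR log2 fold change -0.09, standard error 0.20, adjusted p = 0.723), and 3′ reads need not cover the deleted exon, so this does not check the genotype labels. The library names of Trpm7 cKO replicates 4 and 5 share a number whose meaning is not stated, and nothing says that the libraries of a genotype came from separate animals, so p-values measure the spread between these libraries.

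Hemoglobin transcripts were scarce in 4 of the 5 control libraries. All Trpm7 cKO libraries but replicate 1 held more of them than any control library. Over the 4 genes, control replicates 1 to 5 held 2, 23, 6, 5 and 154 counts, and Trpm7 cKO replicates 1 to 5 held 79, 546, 896, 1101 and 299 counts, from libraries with fewer counts in all. This was 0.000182% to 0.00241% of the counts of control replicates 1 to 4 and 0.0168% of control replicate 5 (exact 95% binomial interval 0.0143% to 0.0197%). In Trpm7 cKO libraries it was 0.015% in replicate 1 (0.0119% to 0.0188%) and 0.307% in replicate 3 (0.287% to 0.328%). These intervals cover counting error only. Normalized, the sum was 43.0 ± 75.9 CPM in the control and 1579.8 ± 1153.3 CPM in the Trpm7 cKO libraries (SD, n = 5 each). In a bulk library, more cells of a type and more RNA per cell cannot be told apart.

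**Figure D1:**
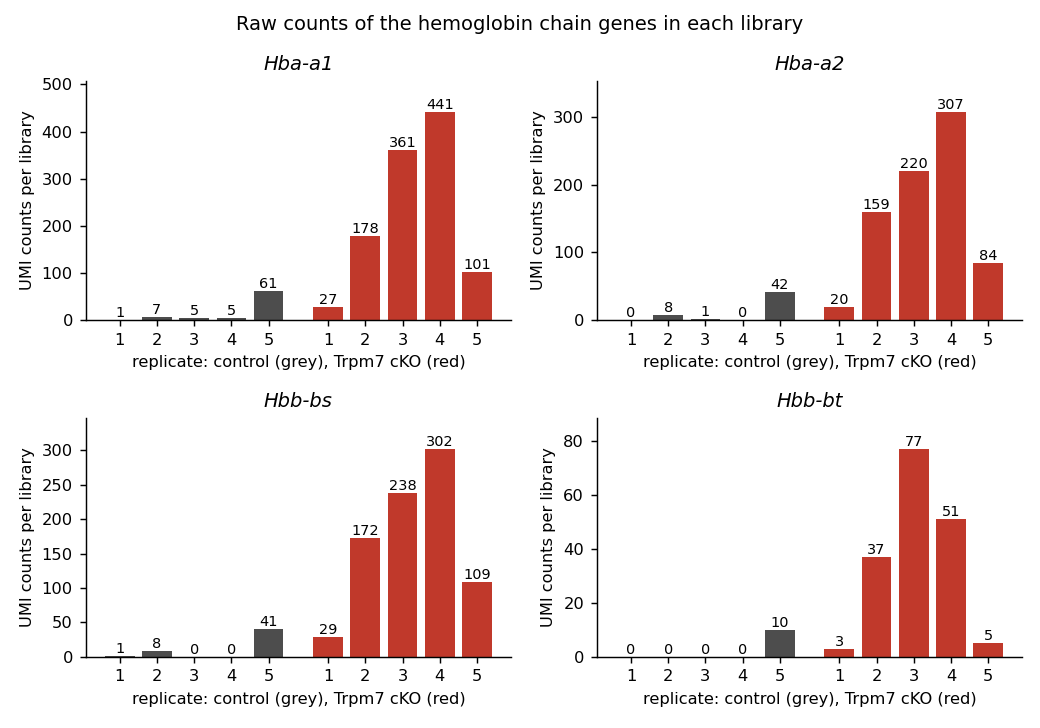
Raw UMI counts of Hba-a1, Hba-a2, Hbb-bs and Hbb-bt (y axes, each from 0) in the 5 control libraries (grey) and the 5 Trpm7 cKO libraries (red), with the count printed over each bar. Control replicate 5 stands above the other control libraries in all 4 panels, and Trpm7 cKO replicate 1 is the lowest Trpm7 cKO library in all 4.

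Hba-a1 was the alpha chain gene with the most counts. Control replicates 1 to 5 held 1, 7, 5, 5 and 61 of them, and Trpm7 cKO replicates 1 to 5 held 27, 178, 361, 441 and 101. All Trpm7 cKO libraries but replicate 1 were above all control libraries, and control replicate 5 was above Trpm7 cKO replicate 1. The normalized level averaged 17.8 ± 29.6 CPM in the control and 597 ± 478 CPM in the Trpm7 cKO libraries (SD, n = 5 each), a ratio of means of 33.5 (edgeR log2 fold change 5.09, standard error 1.11, adjusted p = 0.00504). The exact permutation test of the means, two-sided, gave p = 0.0159.

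Hba-a2, the other adult alpha chain gene, was counted 0, 8, 1, 0 and 42 times in control replicates 1 to 5. In Trpm7 cKO replicates 1 to 5 it was counted 20, 159, 220, 307 and 84 times. The groups overlapped in the same place as for Hba-a1, through control replicate 5 and Trpm7 cKO replicate 1, at 48.6 and 37.0 CPM. Means were 11.6 ± 21.0 CPM (SD, n = 5) and 421 ± 283 CPM (SD, n = 5), and the log2 fold change was 5.21 (edgeR, standard error 1.12, adjusted p = 0.00468; exact permutation test, two-sided, p = 0.0159).

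Hbb-bs was the beta chain gene with the most counts. Its counts were 1, 8, 0, 0 and 41 in control replicates 1 to 5, and 29, 172, 238, 302 and 109 in Trpm7 cKO replicates 1 to 5. By raw counts control replicate 5 was above Trpm7 cKO replicate 1, but as CPM the groups did not overlap, by a narrow margin: control replicate 5 was at 47.5 CPM and Trpm7 cKO replicate 1 at 53.6 CPM. Of all genes tested, 16.6% were likewise higher in Trpm7 cKO libraries without overlap. Levels were 11.3 ± 20.5 CPM in the control and 468 ± 306 CPM in the Trpm7 cKO libraries (SD, n = 5 each), with a log2 fold change of 5.39 (edgeR, standard error 1.09, adjusted p = 0.00344). The exact permutation test, two-sided, gave p = 0.00794, the smallest that 5 libraries against 5 allow.

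Hbb-bt, the minor beta chain gene in these libraries, was at 0 in control replicates 1 to 4 and had 10 counts in control replicate 5. Trpm7 cKO replicates 1 to 5 had 3, 37, 77, 51 and 5 counts. Control replicate 5, at 11.6 CPM, lay between Trpm7 cKO replicates 1 (5.54 CPM) and 5 (27.6 CPM), so the groups overlapped. Hbb-bt did not pass the filter on low counts, since 4 libraries and not the 5 needed exceeded 13.4 CPM, and it has no adjusted p in the test over 7753 genes. Means were 2.32 ± 5.18 CPM (SD, n = 5) and 93.4 ± 110 CPM (SD, n = 5), and the exact permutation test, two-sided, gave p = 0.0159. Of 14 alternatives, 6 ended that call (p = 0.0556 to 0.0635 in the exact test): counts per sorted cell number and leaving out any 1 control library. Fitted without the filter, over 21914 genes, its log2 fold change was 5.06 (edgeR, standard error 1.31, adjusted p = 0.0226). Against control replicates 1 to 4 alone, all at 0, the Trpm7 cKO mean was at least 30.4-fold higher, taking a floor of 3 counts in each of these libraries.

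Hba-a1, Hba-a2 and Hbb-bs passed the filter through the Trpm7 cKO libraries alone, so how many of them were called is no result. Each also exceeded a log2 fold change of 1.5, the size limit the study's methods give. Among all 7753 genes tested, 24.6% were called higher and 8.49% were called higher and exceeded that size. By fold change, Hbb-bs, Hba-a2 and Hba-a1 ranked 8, 9 and 12 of the 7753 genes. Their standard errors, 1.09 to 1.12, were also among the largest, at ranks 5, 3 and 4, against a median of 0.231 over all genes tested, so the sizes of these changes are known with less precision than those of most genes.

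A single library carried most control counts. Control replicate 5 held 77.2% of the control counts of Hba-a1, 82.4% of those of Hba-a2, 82.0% of those of Hbb-bs and 100% of those of Hbb-bt. Without it, the log2 fold changes were 6.95 for Hba-a1, 7.38 for Hba-a2 and 7.53 for Hbb-bs (edgeR, adjusted p = 0.00163, 0.00164 and 0.00116), and none of the 4 genes overlapped between genotypes, while 18.4% of tested genes were higher without overlap. Leaving out Trpm7 cKO replicate 1 also ended the overlap for all 4 (18.2% of tested genes), and leaving out any of the other 8 libraries left 1 of 4, Hbb-bs, without overlap (17.2% to 19.8% of tested genes). Without Trpm7 cKO replicate 3, the highest library by CPM for each gene, log2 fold changes were 4.56, 4.83 and 5.01 for Hba-a1, Hba-a2 and Hbb-bs, and that of Hbb-bt was 4.44 (adjusted p = 0.00824).

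Within the Trpm7 cKO libraries the summed level of the 4 genes spanned 22.4-fold, from 146 CPM in replicate 1 over 1004.8 in replicate 2, 1650 in replicate 5 and 1824.3 in replicate 4 to 3273.8 in replicate 3. Replicates 4 and 5, whose names share a number, were next to each other in this order. Each gene was lowest in replicate 1 and highest in replicate 3, and the range within the genotype was 26.4-fold for Hba-a1, 21.8-fold for Hba-a2, 16.2-fold for Hbb-bs and 50.8-fold for Hbb-bt.

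The share of alpha chains varied little while the total varied widely. UMI counts of 3′ ends do not grow with transcript length, so chains were compared as shares of counts, in the 6 libraries with at least 50 hemoglobin counts. The alpha chain genes took 59.5% of them in Trpm7 cKO replicate 1 (exact 95% binomial interval 47.9% to 70.4%), 67.9% in replicate 4 (65.1% to 70.7%) and 66.9% in control replicate 5 (58.9% to 74.2%), which were the lowest value, the highest value and the value of the control library. Hba-a2 took 37.9% to 47.2% of the alpha chain counts in these libraries, with the limit set by their shared sequence. Hbb-bt varied more: it took 24.4% of the beta chain counts in Trpm7 cKO replicate 3 (19.8% to 29.6%) and 4.39% in replicate 5 (1.44% to 9.94%), intervals that do not overlap, and 19.6% in control replicate 5 (9.82% to 33.1%).

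**Figure D2:**
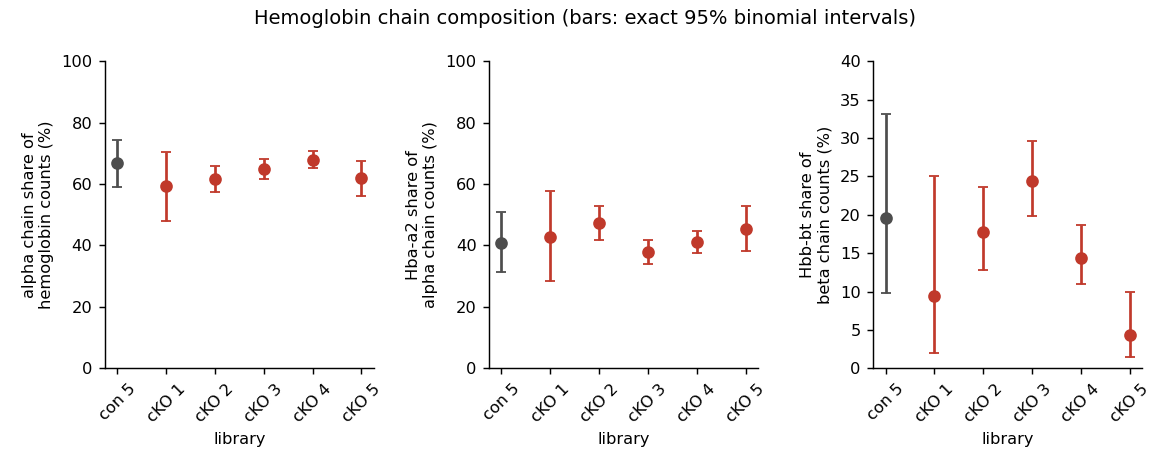
Shares of hemoglobin counts (y axes, percent) in control replicate 5 (grey) and Trpm7 cKO replicates 1 to 5 (red), the libraries with at least 50 hemoglobin counts, with exact 95% binomial intervals as bars. The alpha chain share lies between 59.5% and 67.9%, and the Hbb-bt share of beta chain counts runs from 4.39% to 24.4%.

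Of 9 other hemoglobin chain genes listed, 2 were found in the table, and the rest were not analysed here. Hba-x, the embryonic alpha-like chain, had 0 counts in all 10 libraries, which allows at most 3 counts in each, and Hbq1b, a theta-like chain, had 2 counts in all, both in control libraries. Outside red cells, Cygb, which encodes cytoglobin, had 1 to 8 counts in control and 3 to 12 in Trpm7 cKO libraries. It was at 4.31 ± 2.42 and 21.3 ± 16.2 CPM (SD, n = 5 each), and the groups overlapped by raw counts but not as CPM. Of all genes tested, 16.6% were likewise higher without overlap. Ngb, which encodes neuroglobin, had 3 counts in all. None of these 4 genes passed the filter.

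Other genes of the pathway were then followed by role, in lists of the other globins above, red cell structure, erythroid regulation, iron, heme synthesis, transport, clearance and sensing. Of the 91 genes listed, 73 were found in the table, 70 had a count and 28 passed the filter. Among these 28, 11 were called higher, 6 lower and 11 neither way, with a median log2 fold change of 0.34, against -0.01 over all genes tested, of which 24.6% were called higher and 24.1% lower. Among them, 3 exceeded a log2 fold change of 1.5, and all 3 were higher. Counted per sorted cell, with no scaling for library size, the median of all genes shifted by -1.15, and 2 of the 11, Lmo2 and Lrp1, were still called higher. The sign of Bnip3l, Tmcc2, Ldb1, Blvra and Bach1 turned under that scaling, to between -0.02 and -0.23.

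Genes of the red cell membrane and its skeleton were mostly near 0. Slc4a1, which encodes the band 3 anion exchanger, and Epb42, which encodes protein 4.2, had no count in control and at most 1 per Trpm7 cKO library. Ermap, an erythroid membrane protein, had 1 to 4 counts in control and 0 to 2 in Trpm7 cKO libraries, and Tspan33, a tetraspanin, had 2 to 6 and 0 or 1. Of the 4 genes tested in this list, 3 were called higher, all of them also made outside red cells. Over all genes tested, 24.6% were called higher. Gypc, which encodes glycophorin C, was at 7.48 ± 2.89 and 23.2 ± 9.41 CPM (SD, n = 5 each; edgeR log2 fold change 1.43, adjusted p = 0.00232), and Epb41, which encodes protein 4.1, had a log2 fold change of 1.29 (adjusted p = 0.00291). Aqp1, a water channel of red cells and endothelium, had a log2 fold change of 1.53 (adjusted p = 0.0299), a call that 12 of 21 alternative settings ended. Ank1, ankyrin 1, which muscle also makes, was at 123 ± 15.2 and 122 ± 16.8 CPM (SD, n = 5 each; log2 fold change -0.02, adjusted p = 0.919).

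Erythroid cytosolic and late genes showed smaller differences. Bnip3l, which acts in the clearance of mitochondria from reticulocytes and elsewhere, was higher by a log2 fold change of 1.17 (edgeR, standard error 0.27, adjusted p = 0.00143), and Tmcc2 one of 0.91 (standard error 0.25, adjusted p = 0.00457). Mkrn1, a ubiquitin ligase, was at 0.58 (adjusted p = 0.0504) and Prdx2, a peroxidase abundant in red cells, at -0.23 (adjusted p = 0.283). Bpgm, which makes 2,3-bisphosphoglycerate, had 8 to 15 counts in control and 0 to 8 in Trpm7 cKO libraries. Car2, carbonic anhydrase 2, and Erfe, the erythroblast hormone erythroferrone, had 6 and 5 counts in all 10 libraries together, and Hemgn had 2.

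Gata1 and Klf1, the regulators that define the erythroid lineage, had 0 counts in all 10 libraries. Tal1 had 6 counts in all, Zfpm1, a partner of GATA1, 11, and Epor, the erythropoietin receptor, 5. Lmo2 and Ldb1, which bridge DNA-binding factors in erythroid and in other cells such as endothelium, were the 2 tested genes of this list. Lmo2 had 1 to 8 counts in control and 4 to 24 in Trpm7 cKO libraries, with a log2 fold change of 2.81 (edgeR, standard error 0.43, adjusted p = 2.37e-05), and the change of Ldb1 was 1.11 (standard error 0.34, adjusted p = 0.0121).

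Both tested genes of iron uptake were called lower, against 24.1% of all genes tested. Tfrc, the transferrin receptor through which erythroblasts and dividing cells take up iron, was at 97.7 ± 12.6 CPM in control and 58.7 ± 12.9 CPM in Trpm7 cKO libraries (SD, n = 5 each; edgeR log2 fold change -0.76, adjusted p = 0.00164). Slc11a2, which moves iron out of endosomes, had a log2 fold change of -0.77 (adjusted p = 0.00901). Steap3, an endosomal iron reductase, was not tested, at 8.2 ± 3.35 and 12.5 ± 5.69 CPM (SD, n = 5 each).

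None of the 4 tested heme synthesis enzymes was called by edgeR in either direction, 0 had an unadjusted p below 0.05, and their median log2 fold change was -0.16. Alas1, the form of the heme-starting enzyme that cells outside the erythroid lineage use, was at 17.7 ± 4.42 and 25.0 ± 10.2 CPM (SD, n = 5 each; log2 fold change 0.32, adjusted p = 0.393). Fech, which inserts iron into heme, was at -0.38 (adjusted p = 0.121). Alad, Uros and Urod had at most 14, 13 and 19 counts in any library and did not pass the filter. In DESeq2, too, none of these 4 tested enzymes was called, with adjusted p of 0.143 or more.

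Of the heme and mitochondrial transport genes, 3 of 6 tested were called lower and the other 3 neither way. Over all genes tested, 24.1% were called lower. Slc25a39, a mitochondrial glutathione carrier, fell from 577 ± 55.7 to 213 ± 49.0 CPM (SD, n = 5 each; edgeR log2 fold change -1.42, standard error 0.15, adjusted p = 5.5e-07). Slc25a37, the mitochondrial iron importer mitoferrin 1, had a log2 fold change of -0.76 (adjusted p = 0.00819). The heme transporters Slc48a1 and Flvcr1, at 0.56 (adjusted p = 0.0664) and 0.35 (adjusted p = 0.211), did not pass.

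Genes that clear heme and hemoglobin were called higher in all 3 cases tested, against 24.6% of all genes tested. Lrp1, the receptor for heme bound to hemopexin and for many other ligands, was at 31.7 ± 12.5 and 172 ± 58.4 CPM (SD, n = 5 each; edgeR log2 fold change 2.37, adjusted p = 1.35e-06). Hmox1, the inducible heme oxygenase, was at 21.5 ± 6.17 and 54.5 ± 20.8 CPM (log2 fold change 1.3, adjusted p = 0.000809). Counted per sorted cell, the log2 fold change of Hmox1 was 0.13 (edgeR adjusted p = 0.761). Blvra, biliverdin reductase A, had a log2 fold change of 0.99 (adjusted p = 0.0216), a call that 7 of 21 alternatives ended. Hpx, which encodes hemopexin, had no count in any control library and 1 to 5 in each Trpm7 cKO library, and Cd163, the macrophage receptor for hemoglobin bound to haptoglobin, had at most 2. Of the heme sensors, Bach1, a repressor that heme releases from DNA, was higher (log2 fold change 1.07, adjusted p = 9.83e-05), Eif2ak1, the heme-regulated kinase of translation, was lower (-0.85, adjusted p = 0.0108) and Nfe2l2 was at -0.20 (adjusted p = 0.316).

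**Figure D3:**
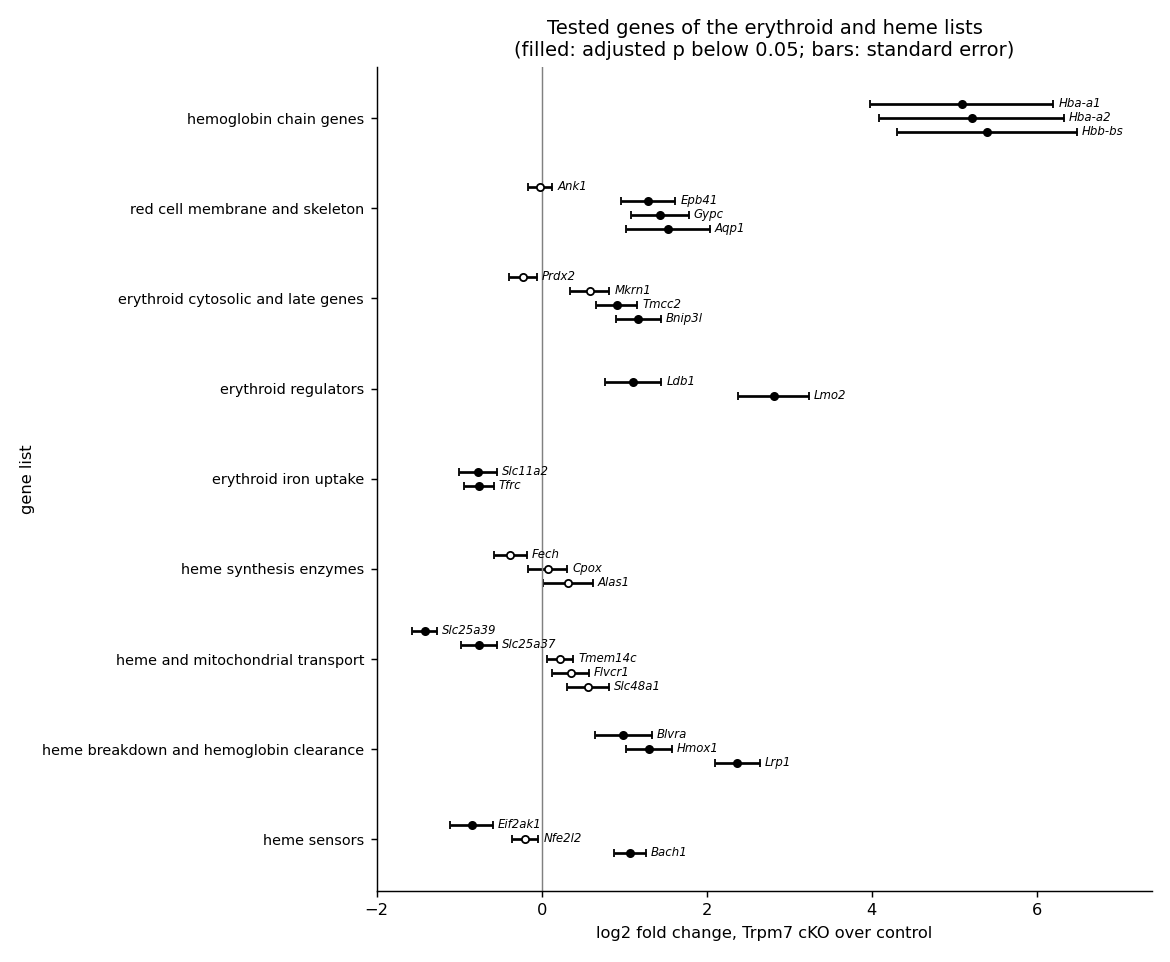
Log2 fold change of Trpm7 cKO over control (x axis) for tested genes of the hemoglobin, erythroid and heme lists (y axis), with the standard error as bars and filled points for adjusted p below 0.05 (edgeR). The 3 hemoglobin genes tested lie between 5.09 and 5.39, and every other gene drawn lies between -1.42 and 2.81.

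Markers of other cells were counted beside the hemoglobin genes, as summed CPM per library, and their part in the hemoglobin counts was not tested. Of 16 erythroid-restricted markers, 11 were found in the table, 9 had a count and none passed the filter. Their summed level ran from 4.29 to 11.6 CPM in control and from 3.31 to 18.3 CPM in Trpm7 cKO libraries, and the groups overlapped. No erythroid-restricted marker had more than 4 counts in any library, while Hba-a1 reached 441.

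Leukocyte, platelet and endothelial markers were higher in Trpm7 cKO libraries. All 13 tested macrophage and pan-leukocyte markers of 15 listed were called higher, with a median log2 fold change of 3.09, among them C1qa (4.33, adjusted p = 0.00297) and Adgre1 (3.43, adjusted p = 1.49e-06). Over all genes tested, 24.6% were called higher. Several of the 13 passed the filter through the Trpm7 cKO libraries alone, so how many were called is no result. Among these were Adgre1, Cd68 and Csf1r, with 4 to 5, 2 to 10 and 5 to 11 counts in control libraries. The summed level of the list was 365 to 609 CPM in control and 1297.4 to 5812.4 CPM in Trpm7 cKO libraries. Pf4, the platelet factor that some macrophages also make, had 12 to 26 counts in control and 54 to 233 in Trpm7 cKO libraries (log2 fold change 3.53, adjusted p = 2.13e-07), Ppbp, a platelet chemokine, had 0 in control and up to 12, and the platelet receptor genes Gp9 and Treml1 had 0 counts in all libraries. Neutrophil markers summed to 4.97 to 13.4 CPM in control and 14.7 to 55.2 CPM in Trpm7 cKO libraries.

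All 4 tested endothelial markers of 12 listed were called higher: Cdh5, the adhesion protein of endothelial junctions, by a log2 fold change of 4.02 (edgeR adjusted p = 0.00228), Eng by 3.77 (9.85e-07), Pecam1 by 3.46 (0.00242) and Flt1 by 3.10 (0.012). The share called higher over all genes tested was 24.6%. Like the hemoglobin genes, these 4 passed the filter mainly through the Trpm7 cKO libraries, so how many were called is no result. Without Trpm7 cKO replicate 4 the adjusted p of Flt1 was 0.0518. The endothelial list summed to 17.9, 19.6, 7.51, 36.1 and 82.2 CPM in control replicates 1 to 5 and to 183, 153, 300, 439 and 800 CPM in Trpm7 cKO replicates 1 to 5. Control replicate 5, the control library with the most hemoglobin, was also the highest control library in this list. It was the highest in the leukocyte list too, at 609 CPM against 365 to 506 CPM in the other 4, and in the platelet list, at 34.7 CPM against 16.1 to 26.8. The same held for the MuSC list, at 2038.6 CPM against 1719.3 to 1904.1, and the erythroid-restricted list, at 11.6 against 4.29 to 7.23. In the neutrophil list it was not the highest, at 6.95 CPM against 4.97 to 13.4. Within Trpm7 cKO libraries, replicate 3, the highest in hemoglobin, was also the highest in the erythroid-restricted list, at 18.3 CPM from 5 counts. In the other lists the orders differed: replicate 3 had rank 3 in the endothelial list and rank 4 in the leukocyte list. It was not the highest in the platelet, neutrophil and MuSC lists either.

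**Figure D4:**
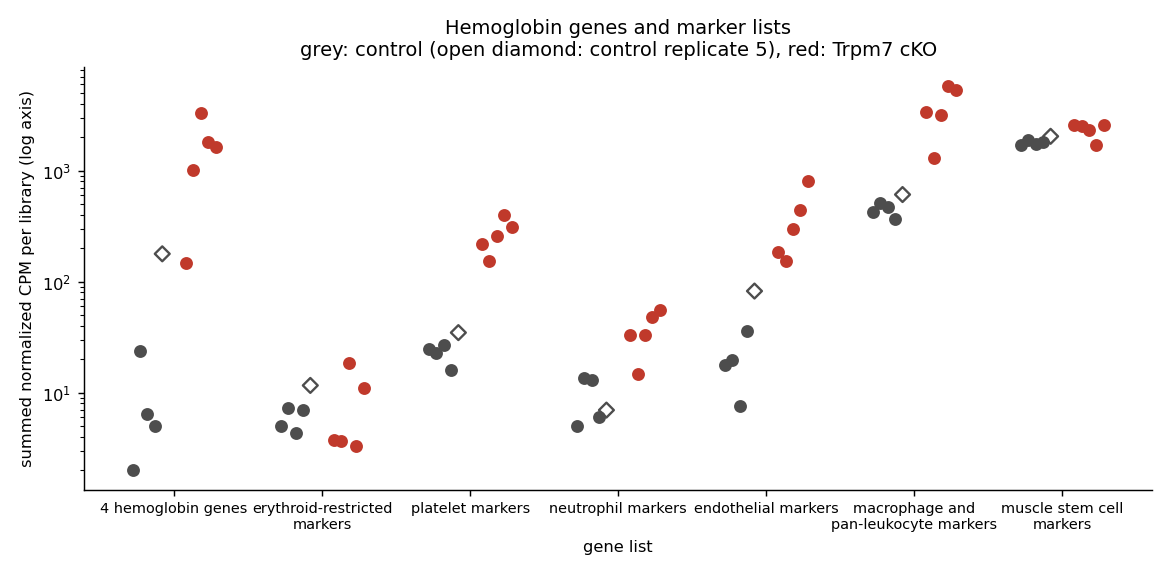
Summed normalized CPM per library (y axis, log scale) of the 4 hemoglobin genes and of 6 marker lists, for control (grey, with replicate 5 as an open diamond) and Trpm7 cKO libraries (red). Control replicate 5 is at 178 CPM for hemoglobin against at most 23.8 CPM in the other control libraries, and the erythroid-restricted markers stay at or under 18.3 CPM in all 10 libraries.

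The genes with the pattern most like that of the summed hemoglobin level were sought among 7750 tested genes over the 10 libraries, which fall into 2 genotypes, so that a pooled correlation includes the genotype difference. The highest Pearson r were those of C130023A14Rik (0.981), Tnrc18 (0.975), Nacc2 (0.968), Ece1 (0.967) and Tcf25 (0.963), with Spearman's rho of 0.939, 0.964, 0.879, 0.952 and 0.927. After each gene was centred on its genotype mean they were C130023A14Rik (0.948), Ryk (0.945), Tnrc18 (0.927), Tomm34 (0.918) and Pwwp3a (0.899). These are the highest of many values, the libraries share their depth across genes, and C130023A14Rik had 5 to 16 counts per library. None of these genes changed as much as the hemoglobin genes: Ece1, which encodes endothelin-converting enzyme 1, had the largest log2 fold change among them, 2.34.

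The direction of each hemoglobin gene was the same under every alternative that gave a value. Counts per sorted cell number gave the smallest log2 fold changes, 3.80 for Hba-a1, 3.94 for Hba-a2 and 4.07 for Hbb-bs, and these exceeded the median of all genes under that scaling by 4.95, 5.09 and 5.22. With limma-voom the log2 fold changes were 5.68 for Hba-a1 (adjusted p = 0.0239), 6.65 for Hba-a2 (adjusted p = 0.0508, no longer below 0.05) and 6.86 for Hbb-bs (adjusted p = 0.0341).

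**Figure D5:**
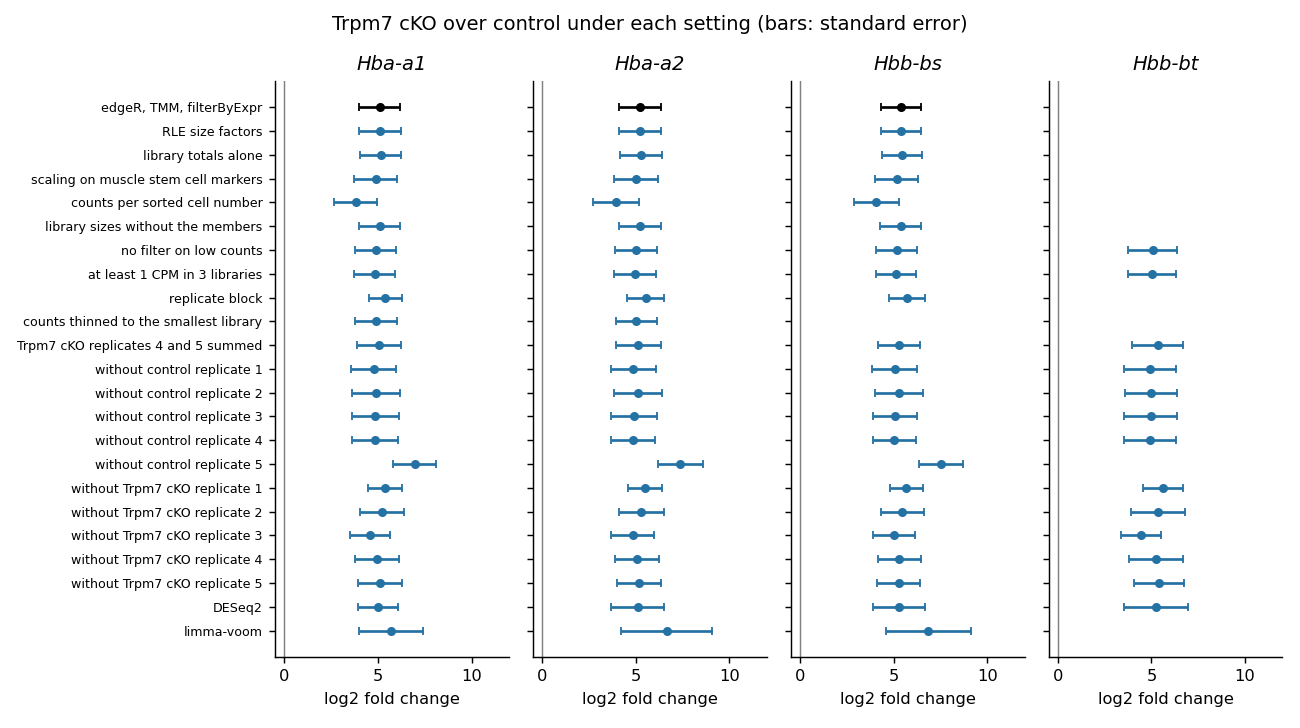
Log2 fold change of Trpm7 cKO over control (x axis) of the 4 hemoglobin genes under each setting (y axis), with the standard error as bars and the edgeR value with TMM and the filter in black. All points lie at or above 3.80, the points without control replicate 5 lie highest for Hba-a1, Hba-a2 and Hbb-bs, and Hbb-bt is drawn only where it passed the filter, without the setting that leaves all its control libraries at 0.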

How the data were processed

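Counts of 10 CEL-Seq2 libraries, 5 control and 5 Trpm7 cKO, were analysed. Per the labels and the methods, the authors extracted UMIs with UMI-tools 1.1.4, trimmed reads with Trim Galore 0.6.10, aligned them to GRCm38 with HISAT2 2.2.1, counted them on genes with featureCounts 2.0.6, removed UMI duplicates and deposited raw whole-number counts. Annotation, strand setting and treatment of reads with several matches are not given in the sources used here. The deposited table has 24620 entries under 24608 symbols, and for the 12 entries that repeat a symbol the one with the larger total was used.

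Groups and replicate numbers came from the labels. Counts were tested with edgeR 4.0.16 in R 4.3.3 (filterByExpr with a minimum count of 10 and a minimum total count of 15, TMM, robust quasi-likelihood F test, Benjamini-Hochberg adjustment over 7753 genes, called at adjusted p below 0.05). Single values were tested with exact permutation tests over all splits, computed with numpy 2.4.6. Binomial intervals and Spearman's rho came from scipy 1.17.1. DESeq2 1.42.0, limma-voom (limma 3.58.1), other scalings, other filters, thinned counts, a replicate block, summed libraries and each library left out were alternatives. The fit was tested on simulated counts for the control against Trpm7 cKO comparison, where 200 of 200 changed genes were called among 7648 tested, as were 10 unchanged genes. How often changed genes are called was not tested separately for genes near 0 in most control libraries, such as the hemoglobin genes.

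The genes and lists were chosen with earlier results of these data known. Named genes were the listed genes, other globins with a count, from each list up to 4 called genes by size, 2 not called by adjusted p and 3 removed by the filter by total, the 5 genes most alike in each of 2 correlations (log2 CPM, prior count 2), and Trpm7. Genes named in addition, chosen after their values were seen, are Hba-x, Slc4a1, Epb42, Hemgn, Gata1, Klf1, Alas1, Cd163, Gp9 and Treml1. Depth ran from 205986 to 1097709 counts per library. A count of 0 allows up to 3 counts, and shares have exact (Clopper-Pearson) intervals. Gene models came from GENCODE vM21 and promoters from RefSeq. Some genes that the rule names are counted in their lists but are not reported here by name. The study's other experiments were not used here.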

Additional observations from a re-analysis of the deposited data

Results flagged for a closer look

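Of 24 groups of 5 values examined, 7 had a highest or lowest library whose gap to its nearest neighbour exceeded Dixon's 95% critical value of 0.71 of the range, and chance flags about 1 in 20 such groups. Of the 7, 5 are control replicate 5 and rest on the same library and partly on the same reads. Control replicate 5 was at 70.6 CPM for Hba-a1 against 0.994 to 7.23 CPM in the other control libraries, at 48.6 CPM for Hba-a2 against 0 to 8.26, at 47.5 CPM for Hbb-bs against 0 to 8.26 and at 11.6 CPM for Hbb-bt against 0. The summed level of the 4 genes in that library was 178 CPM against 1.99 to 23.8 CPM. Trpm7 cKO replicate 3 was at 281 CPM for Hbb-bt, against 5.54 to 84.5 CPM in the other Trpm7 cKO libraries. The muscle stem cell markers summed to 1700 CPM in Trpm7 cKO replicate 4, below the 2345.7 to 2593.6 CPM of the other Trpm7 cKO libraries, and that library also had the highest summed macrophage and pan-leukocyte level, 5812.4 CPM.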

How the results depend on the processing

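Of 134 alternative values of the 4 hemoglobin genes, 127 kept the direction and the side of the threshold, 7 lost the call and 0 reversed. Of 88 alternative counts of genes, 74 were within 1.5 times the count reported. With limma-voom the log2 fold change of Hba-a2 was 6.65 (adjusted p = 0.0508). Counted per sorted cell number, the permutation test of Hbb-bt (difference of means 53.6 on a CPM scale with equal library sizes) gave p = 0.0556, and leaving out a control library moved it to between 0.0556 and 0.0635. Leaving out 1 library at a time gave log2 fold changes of 4.56 to 6.95 for Hba-a1, 4.83 to 7.38 for Hba-a2, 5.01 to 7.53 for Hbb-bs and 4.44 to 8.90 for Hbb-bt, the last with every remaining control library at 0 and so no bound. The differences of mean CPM were then 391 to 697, 308 to 493, 349 to 546 and 43.7 to 110. Scaling on MuSC markers called 1204 genes higher in place of 1908, counts per sorted cell 380, no filter 2881, at least 1 CPM in 3 libraries 2886, and thinned counts 913. Counts per sorted cell called 5162 genes lower in place of 1866, the looser filter 2863 and thinned counts 875. Of the erythroid and heme genes, counts per sorted cell and thinned counts each called 2 higher in place of 11, and 10 (MuSC markers), 13 (per sorted cell), 11 (looser filter) and 1 (thinned) were lower in place of 6. The share of calls that were higher, 50.6%, was 31.6% with MuSC marker scaling and 6.86% per sorted cell. The median of all genes shifted by -0.31, -1.15, 0.17 (no filter) and 0.63 (DESeq2, 24608 genes). Hbb-bs did not pass the filter in thinned counts. With the replicate block the log2 fold changes were 5.39, 5.53 and 5.70 (adjusted p = 0.00726, 0.0105 and 0.00872). Libraries with the same number correlated at -0.118 to 0.181 in their deviations, which shows no clear pairing, but so few libraries cannot exclude one. The block changed no call of these genes. Trpm7 cKO libraries, down to 205986 counts, limit what can be said of genes near 0.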
